A study of Mus musculus with 816 samples.

Results

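Transcript levels of 10 genes that encode subunits and feedback inhibitors of NF-kB were followed in mouse microglia, both in culture across a panel of stimuli and after isolation from the brain. The genes, chosen by name, were Nfkb1, Nfkb2, Rel, Relb, Nfkbia, Nfkbie, Nfkbiz, Tnfaip3, Tnip3 and Irak3. They are 10 of the 45581 genes listed for the cultures and of the 29858 listed for the mice, and all 10 were present in both tables. Expression was measured by sequencing of the 3′ ends of transcripts and is given as CPM, the reads of a gene as a share of all mapped reads on a fixed scale. There were 784 cultures of purchased primary microglia from neonatal mice, in 98 groups of stimulus and time (4, 24 or 72 h), and 32 mice. Untreated cultures were collected at 24 h (n = 40) and at 72 h (n = 25).

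The stimuli most used here were 2 doses of lipopolysaccharide (LPS), the ligand of Toll-like receptor TLR4, labelled LPS_hi (0.0001 ug/ul) and LPS_lo (0.00001 ug/ul). The TLR2 ligand Pam3Cys-Ser-(Lys)4, labelled P3C, was given at 0.001 ug/ul, and high molecular weight Poly(I:C), labelled IC, a ligand of TLR3, at 0.2 ug/ul. Tumour necrosis factor (TNFa) was given at 0.000004 ug/ul, IFNg and IFNb at 0.0001 ug/ul, IFNa at 0.0008 ug/ul, and IL4, IL10 and IL13 at 0.00005 ug/ul each. In 1 experiment, female C57BL/6 mice of 2 months received LPS (2 mg/kg, intraperitoneal, n = 4) or the vehicle PBS (n = 4), and their microglia were taken after 4 h. In the other, male C57BL/6 mice of 2 months (n = 11) and 22 months (n = 13), labelled naive, were compared. The column headers of 4 mice of each age, which form 1 of the 2 library sets, call them vehicle mice. All microglia from mice were isolated from the perfused brain with magnetic beads against CD11b, a surface protein that monocytes and neutrophils carry as well.

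NF-kB is a family of transcription factors that act as dimers. In resting cells the dimers are held inactive by inhibitors of the IkB kind, and a signal from a Toll-like receptor or the TNF receptor activates a kinase complex that marks the inhibitor for destruction, so that the dimer enters the nucleus. Several genes that NF-kB switches on encode its own subunits and inhibitors, which makes the pathway a classic case of feedback, and in microglia it is best known for the transcription of cytokines after contact with microbial products.

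The libraries held 1.00 to 38.2 M reads (M, mega) in cultures (median 4.67) and 2.36 to 7.78 M in mice (median 4.08). The summed level of 8 microglia markers was 3551 to 9142 CPM in untreated 24 h cultures and 43809 to 54861 CPM in PBS mice, in tables that were normalised separately. Within that list, the defining markers Tmem119 and P2ry12 had medians of 14.6 and 3.49 CPM in untreated 24 h cultures, against 4770 and 757 CPM in PBS mice. Csf1r, Fcrls and Cx3cr1, also on the list, had medians of 3927, 524 and 380 CPM in these cultures. Because these are bulk samples, fewer cells of a type and less RNA per cell cannot be told apart.

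In the GENCODE vM21 annotation of GRCm38 all 10 are protein-coding genes. On the minus strand lie Nfkb1 (chr3:135584655-135691547), Rel (chr11:23736847-23770970), Relb (chr7:19606217-19629438), Nfkbia (chr12:55489410-55492647), Nfkbiz (chr16:55811375-55838899), Tnfaip3 (chr10:19000910-19015657) and Irak3 (chr10:120141648-120202130). On the plus strand lie Nfkb2 (chr19:46304320-46312385), Nfkbie (chr17:45555703-45563169) and Tnip3 (chr6:65525313-65634040). RefSeq promoters of the GRCm38.p6 build, from 250 bases before to 50 after the transcript start, were available for 7 of the 10 genes and were searched on both strands for the kappaB consensus, the DNA element that NF-kB dimers bind. A match was found for 6 of these 7 genes (Nfkb2, Rel, Nfkbia, Nfkbie, Tnfaip3 and Tnip3), against 9.55% of the 27025 genes in the table. Those shown, at the outermost listed start, belong to the precursor gene Nfkb2 and to 4 inhibitors whose responses are set apart in the results, with bases that belong to a match in capitals and each sequence written along the strand of its gene. Irak3, a feedback inhibitor that followed another time course, had no match in either of its listed windows. A match says only that these letters are present.
Nfkb2, chr19:46304487-46304786, plus strand: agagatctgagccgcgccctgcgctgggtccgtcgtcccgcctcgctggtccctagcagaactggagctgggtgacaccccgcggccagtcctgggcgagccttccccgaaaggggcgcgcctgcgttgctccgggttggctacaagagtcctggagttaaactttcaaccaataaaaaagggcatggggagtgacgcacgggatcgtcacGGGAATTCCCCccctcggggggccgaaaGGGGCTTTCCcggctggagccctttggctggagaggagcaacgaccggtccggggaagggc
Nfkbia, chr12:55492598-55492897, minus strand: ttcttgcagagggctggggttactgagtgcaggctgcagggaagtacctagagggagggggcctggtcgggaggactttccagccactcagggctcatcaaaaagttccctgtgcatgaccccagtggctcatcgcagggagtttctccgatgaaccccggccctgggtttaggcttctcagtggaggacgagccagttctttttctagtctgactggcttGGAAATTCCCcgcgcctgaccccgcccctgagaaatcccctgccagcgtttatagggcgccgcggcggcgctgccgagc
Tnfaip3, chr10:19015361-19015660, minus strand: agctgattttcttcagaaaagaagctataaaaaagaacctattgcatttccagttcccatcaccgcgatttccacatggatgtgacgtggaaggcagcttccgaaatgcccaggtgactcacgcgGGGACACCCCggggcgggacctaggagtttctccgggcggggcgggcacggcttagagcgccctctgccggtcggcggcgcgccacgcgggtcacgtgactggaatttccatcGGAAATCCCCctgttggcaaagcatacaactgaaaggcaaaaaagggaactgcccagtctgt
Tnip3, chr6:65590148-65590447, plus strand: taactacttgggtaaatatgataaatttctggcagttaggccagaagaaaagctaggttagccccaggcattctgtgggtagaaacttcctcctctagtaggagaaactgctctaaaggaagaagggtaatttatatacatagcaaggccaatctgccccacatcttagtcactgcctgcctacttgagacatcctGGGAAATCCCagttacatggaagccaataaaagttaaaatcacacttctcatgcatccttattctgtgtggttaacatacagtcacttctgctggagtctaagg
Irak3, chr10:120202081-120202380, minus strand: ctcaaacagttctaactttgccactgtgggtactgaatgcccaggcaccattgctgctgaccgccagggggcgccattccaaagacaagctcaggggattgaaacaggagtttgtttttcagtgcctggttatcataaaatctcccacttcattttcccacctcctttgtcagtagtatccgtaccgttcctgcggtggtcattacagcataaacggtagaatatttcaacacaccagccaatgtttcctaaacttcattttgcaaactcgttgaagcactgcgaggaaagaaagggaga
The match GGAAATTCCC of Nfkbia started 29 bases before the transcript start and GGGAAATCCC of Tnip3 54 bases before it. In Tnfaip3 the matches GGGACACCCC and GGAAATCCCC started 125 and 12 bases before the start, and in Nfkb2 the overlapping pair GGGAATTCCC and GGAATTCCCC stood 39 and 38 bases before it, with GGGGCTTTCC at 11. In the Rel window, which is not shown, GGGAAATCCC stood 92 bases before the start.

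The first comparison asked how these genes changed over time after LPS. After 4 h with LPS_hi (n = 7, on 2 plates) all 10 genes were higher than in untreated 24 h cultures, where 5.45% of the 16935 genes tested were called higher. A gene was called in cultures at an adjusted p under 0.05 in limma and a log2 fold change of at least 1 on the scale of log2(CPM + 1), and fold changes are on this scale throughout. Where a group of more than 5 samples is given by 3 levels, these are its lowest, median and highest values. The log2 fold changes ran from 1.28 for Irak3 to 5.26 for Nfkbiz.

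Among the subunits, Nfkb1 encodes the precursor of the smaller partner of the classical dimer. Its lowest, median and highest levels were 47.9, 129.7 and 232 CPM in untreated 24 h cultures and 862, 1109 and 1503 CPM after 4 h, a log2 fold change of 3.09 (SE 0.30, adjusted p = 2.24e-21). Nfkb2, the precursor used in the alternative pathway, went from 11.8, 69.1 and 144 CPM to 772, 1270.1 and 1538 CPM, with a fold change of 4.23 (SE 0.35, adjusted p = 3.48e-28). No LPS culture overlapped an untreated one for either gene. Rel, which encodes c-Rel, a subunit prominent in blood cells, had 7.397, 18.6 and 74.99 CPM untreated and 145, 164 and 242 CPM with LPS, and its fold change was 3.08 (SE 0.45, adjusted p = 4.73e-10). Relb, the usual partner of the processed Nfkb2 product, moved from 0.807, 9.89 and 21.1 CPM to 42.05, 63.4 and 121 CPM and by 2.86 (SE 0.37, adjusted p = 9.95e-13). These groups were separate as well.

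Of the inhibitors of the IkB kind, Nfkbia, which encodes IkB alpha and is the classic negative feedback gene, had 53.001, 116 and 198 CPM untreated and 1612, 1999.97 and 3005 CPM after 4 h. Its fold change was 4.19 (SE 0.21, adjusted p = 1.06e-68). Nfkbie, encoding IkB epsilon, a slower acting inhibitor, went from 0, 9.24 and 39.7 CPM to 93.7, 139 and 239.8 CPM and changed by 4.04 (SE 0.44, adjusted p = 1.6e-17). Nfkbiz encodes IkB zeta, a nuclear member of the family that also serves as a coactivator of a second wave of genes. It moved from 0.415, 5.13 and 14.04 CPM to 155, 212 and 342 CPM, and its log2 fold change of 5.26 (SE 0.40, adjusted p = 5.37e-33) was the largest of the 10. All 7 LPS cultures lay above all 40 untreated cultures for the 3 genes.

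Among the inhibitors that act on the signal itself, Tnfaip3 encodes A20, a ubiquitin-editing enzyme that switches off signalling complexes. It had 11.8, 39.2 and 92.3 CPM untreated and 651, 778 and 983 CPM at 4 h, with a fold change of 4.40 (SE 0.46, adjusted p = 5.89e-19). Tnip3, which encodes an A20-binding protein, went from 0.403, 4.93 and 16.1 CPM to 55.3, 118 and 218 CPM and by 4.26 (SE 0.42, adjusted p = 3.62e-21). For both genes the groups were separate. Irak3 encodes IRAK-M, an inhibitory relative of the kinases that carry the Toll-like receptor signal. Its levels were 4.29, 11.5 and 26.5 CPM untreated and 17.9, 25.99 and 64.8 CPM at 4 h, so that the groups overlapped, and its fold change of 1.28 (SE 0.36, adjusted p = 0.00189) was the smallest.

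The labels give no untreated 4 h culture. Against the 14 cultures given the chemokines CCL2 or CCL7 for 4 h, all 10 genes were again called higher, where 5.2% of all genes were, with fold changes from 1.16 for Irak3 to 4.65 for Nfkbiz. Within each of the 2 plates that held both LPS_hi 4 h and untreated 24 h cultures, all 10 genes were also higher with LPS. The median over all genes tested was -0.39, and -0.22 after median-of-ratios scaling, which moved none of the 10 genes out of the called set. The summed microglia markers were 2079 to 3211 CPM in LPS_hi 4 h cultures, 5 of 8 markers being lower, and the summed level of 10 genes that rise with tissue dissociation was 740 to 1554 CPM against 173 to 771 CPM untreated. The part of these values in the result was not tested.

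**Figure D1:**
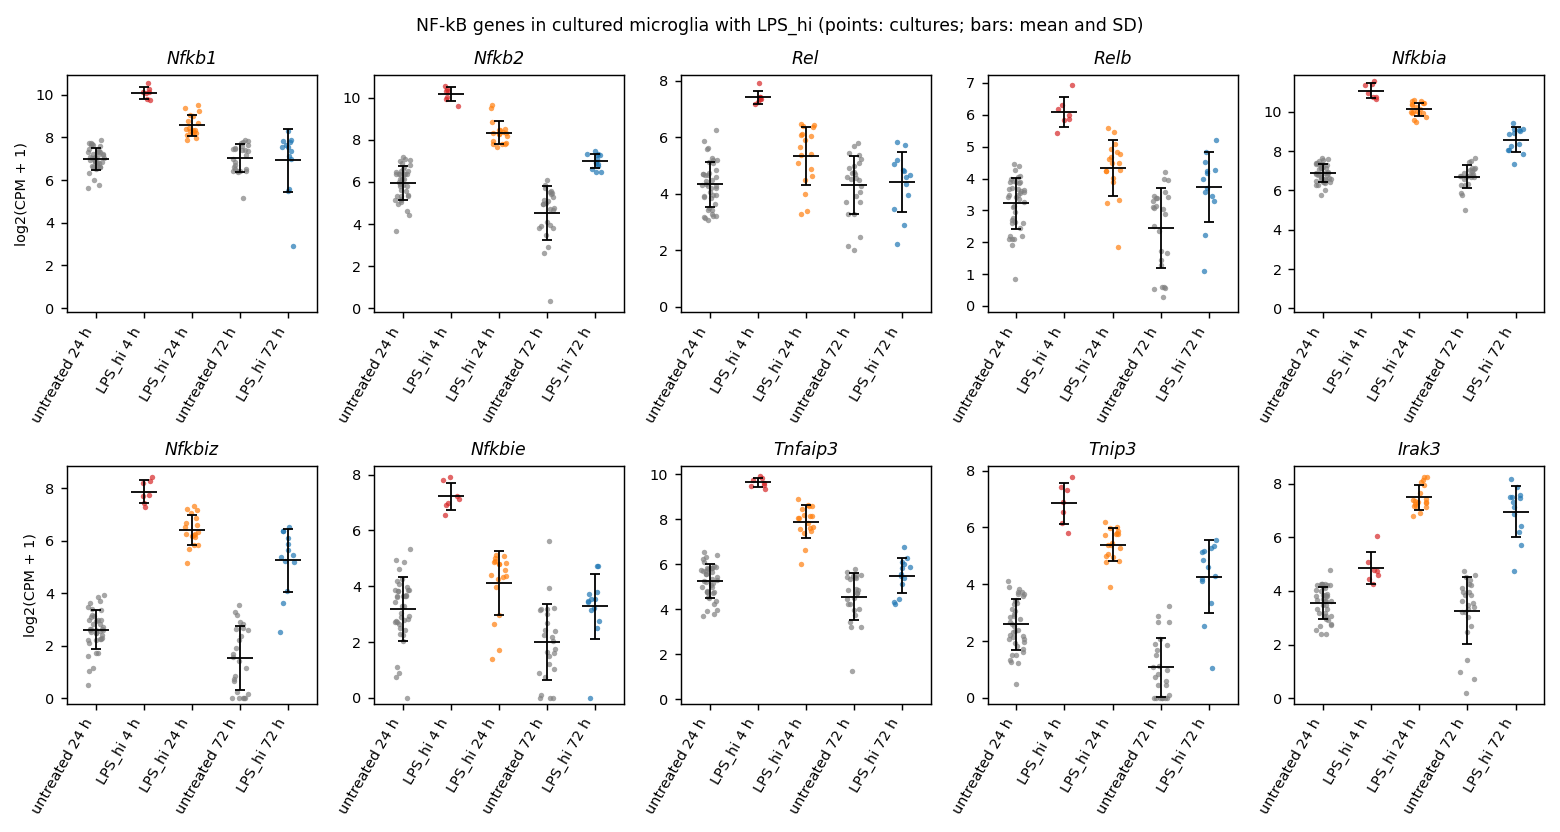
Levels of the 10 genes, as log2(CPM + 1), in every culture that was untreated or received LPS_hi, by time; each point is 1 culture and the bars give the mean and SD. The 4 h LPS cultures stand above all untreated cultures for every gene except Irak3, whose LPS cultures at 24 h, between 110 and 304 CPM, reach the highest values.

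After 24 h with LPS_hi (n = 18, on 6 plates) the group divided. Called higher were 8 of the 10 genes, against 5.25% of all genes: Nfkb1, Nfkb2, Relb, Nfkbia, Nfkbiz, Tnfaip3, Tnip3 and Irak3. Each of these was higher within 6 of 6 plates. Irak3 had 109.98, 160.1 and 304 CPM, every culture above the untreated ones, and its fold change was now 3.92 (SE 0.25, adjusted p = 5.18e-46), the largest of the 10. Nfkbiz had 34.6, 77.7 and 159 CPM and a fold change of 3.79 (SE 0.28, adjusted p = 8.81e-36). Nfkbia stood at 716, 1079.7 and 1527 CPM and at 3.25 (SE 0.14, adjusted p = 3.7e-82). These values, too, did not overlap with those of untreated cultures, nor did those of Nfkb1 and Nfkb2.

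Tnip3 had 13.98, 41.99 and 71.9 CPM and Tnfaip3 64.1, 267 and 479.7 CPM at 24 h, with fold changes of 2.81 (SE 0.29, adjusted p = 1.34e-19) and 2.65 (SE 0.32, adjusted p = 7.66e-15). Nfkb2 and Nfkb1 were at 201, 315 and 806 CPM and 237, 329 and 728 CPM, changed by 2.40 (SE 0.24, adjusted p = 6.52e-20) and 1.55 (SE 0.21, adjusted p = 4.34e-12). Tnfaip3 and Tnip3 overlapped with the untreated cultures, the precursor genes did not. Relb, at 2.61, 21.4 and 46.6 CPM, changed by 1.11 (SE 0.25, adjusted p = 0.000111), and with a pseudocount of 5 its fold change was 0.85, under the minimum. Rel (8.64, 45.9 and 88.5 CPM) and Nfkbie (1.61, 21.7 and 33.4 CPM) passed on the p-value but not on the fold, at 1.00 (SE 0.31, adjusted p = 0.00677) and 0.94 (SE 0.30, adjusted p = 0.00877), and both were higher within 5 of 6 plates. The microglia marker sum at this time was 791 to 2694 CPM, 6 of 8 markers being lower, and its part was not tested.

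Set against the 4 h cultures directly, 9 of the 10 genes were called different at 24 h, where 14.7% of all genes were. Lower were Nfkbie at -3.10 (SE 0.47, adjusted p = 9.77e-09), Rel at -2.08 (SE 0.49, adjusted p = 0.00046) and Nfkb2 at -1.83 (SE 0.38, adjusted p = 5.76e-05). Irak3, in contrast, was higher by 2.64 (SE 0.39, adjusted p = 2.31e-09), its 18 cultures at 24 h all above the 7 at 4 h. The falls of Tnfaip3 (-1.76), Relb (-1.75), Nfkb1 (-1.54), Nfkbiz (-1.47) and Tnip3 (-1.45) were smaller than that of Nfkbie, and Nfkbia, at -0.94 (SE 0.22, adjusted p = 0.000589), did not reach the minimum fold. Within each of the 2 plates that held both times, Irak3 was higher and the other 9 genes were lower at 24 h.

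At 72 h (LPS_hi n = 13, on 4 plates; untreated n = 25) the called genes were 7 of 10, all higher, against 3.59% of all genes. Irak3 had 0.132, 10.6 and 25.5 CPM untreated and 25.5, 158 and 288 CPM with LPS, and changed by 3.69 (SE 0.30, adjusted p = 2.44e-29). Nfkbiz, with 0, 2.001 and 10.8 CPM and 4.702, 43.3 and 89.5 CPM, changed by 3.70 (SE 0.33, adjusted p = 3.89e-24). Within each of the 4 plates both genes were higher with LPS. Tnip3 changed by 3.20 (SE 0.35, adjusted p = 3.24e-17), Nfkb2 by 2.46 (SE 0.29, adjusted p = 1.94e-14) and Nfkbia by 1.87 (SE 0.17, adjusted p = 2.82e-23). Nfkb2 was the 1 gene whose cultures did not overlap between the groups at 72 h. Relb and Nfkbie changed by 1.28 and 1.28; with a pseudocount of 5 the fold change of Relb was 0.82. The microglia markers summed to 907 to 7047 CPM in untreated cultures at 72 h and to 1014 to 3244 CPM with LPS, 4 of 8 being lower, and 2 of 5 markers of perivascular macrophages were lower. The genes that rise with dissociation summed to 264 to 631 CPM and 413 to 671 CPM, 3 of 10 being higher and 1 lower. The part of these values was not tested.

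The other 3 genes were Nfkb1, Rel and Tnfaip3, at -0.10 (SE 0.25, adjusted p = 0.842), 0.12 (SE 0.38, adjusted p = 0.89) and 0.95 (SE 0.38, adjusted p = 0.052). Nfkb1 had 34.4, 145 and 236 CPM untreated and 6.53, 185 and 319 CPM with LPS, and Tnfaip3 1.38, 24.99 and 53.9 CPM and 17.6, 46.7 and 108 CPM. The LPS range of Nfkb1 was widened at its low end by 3 cultures of 1 library pool, which held 43.2, 47.4 and 6.53 CPM. When the LPS effect at 72 h was tested against that at 24 h, 3 genes were called lower at 72 h, where 3.21% of all genes were: Nfkb1 at -1.66 (SE 0.32, adjusted p = 4.41e-05), Nfkbia at -1.38 (SE 0.22, adjusted p = 2.81e-07) and Tnfaip3 at -1.69 (SE 0.49, adjusted p = 0.0159). Without those 3 cultures the differences of Nfkb1 and Tnfaip3 were -0.98 and -1.44 and 1 gene, Nfkbia, was called. The cultures of the 2 times stood on different plates, and untreated cultures themselves differed between them, 4 genes being lower at 72 h, against 6.23% of all genes: Tnip3 (-1.51), Nfkb2 (-1.42), Nfkbie (-1.18) and Nfkbiz (-1.06). By the file headers, the untreated and LPS_hi cultures at 24 h carried 3 source IDs and those at 72 h carried 1. Time, plate and source ID cannot be told apart here.

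The lower dose was compared with untreated cultures in the same way. With LPS_lo for 24 h (n = 7) 7 of 10 genes were called higher, against 4.15% of all genes, led by Irak3 and Nfkbiz. Irak3 had 106, 173 and 207 CPM and a log2 fold change of 3.73 (SE 0.36, adjusted p = 2.23e-21), and Nfkbiz 25.9, 47.8 and 107 CPM and 3.05 (SE 0.40, adjusted p = 4.95e-12). Neither overlapped with the untreated cultures. Tnip3 (2.70), Nfkbia (2.45), Nfkb2 (1.75), Tnfaip3 (1.33) and Nfkb1 (1.01) were the others. At 72 h LPS_lo (n = 11) also gave 7 of 10 called, against 4.41%, with Irak3 at 3.33 and Tnip3 at 3.23. In the direct test of the doses at 24 h, which differ by a factor of 10, no member was called, where 0.278% of all genes were; 2 of the 10 had an unadjusted p under 0.05. These, both higher at the higher dose and the 2 largest differences, were Tnfaip3 at 1.32 (SE 0.49, adjusted p = 0.442) and Nfkbia at 0.80 (SE 0.22, adjusted p = 0.0813). Nfkbia at 72 h differed by 0.66 (SE 0.21, adjusted p = 0.0307), under the minimum fold, and no member was called there either, where 4.89% of all genes were.

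The TLR2 ligand P3C addressed whether a ligand of another Toll-like receptor gives the same pattern. At 24 h (n = 6) 6 of 10 genes were called higher, against 3.22% of all genes. Irak3 had 106, 204 and 314 CPM and a fold change of 4.12 (SE 0.38, adjusted p = 1.54e-22), and Nfkbiz 44.2, 70.4 and 167 CPM and 3.65 (SE 0.43, adjusted p = 1.06e-14). Nfkbia (499, 761 and 909 CPM), Tnip3 (22.4, 28.98 and 64.4 CPM) and Nfkb2 (252, 352 and 392 CPM) also lay wholly above the untreated cultures, and changed by 2.66, 2.53 and 2.46. Relb was the last, at 1.33 (SE 0.39, adjusted p = 0.0055) and at 0.99, under the minimum, with a pseudocount of 5. Tnfaip3, with 33.3, 85.7 and 139.9 CPM, did not pass at 0.99 (SE 0.49, adjusted p = 0.135); with plate or library pool as a term in the fit it was called, at 1.67 and 1.96. At 72 h (n = 6) 6 of 10 were called, against 4.81%, with Nfkbiz at 81.6, 90.95 and 204 CPM and 5.24 (SE 0.44, adjusted p = 1.7e-26), its largest fold change with a single stimulus at 72 h.

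In the direct comparison of LPS_hi with P3C at 24 h, Tnfaip3 was the 1 gene of 10 called higher with LPS, at 1.66 (SE 0.52, adjusted p = 0.0206), where 7.12% of all genes were called higher. The call was lost with plate or pool as a term, where the difference was 0.53 and 0.25, and within the 2 shared plates it was 0.56 and 0.93. For Irak3 the difference was -0.19 (SE 0.41, adjusted p = 0.902) and for Nfkbiz 0.15 (SE 0.46, adjusted p = 0.95). The doses of the ligands are not matched in potency, so these values compare the cultures as they were treated.

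TNFa reaches NF-kB through its own receptor and not through the Toll-like receptor adaptors. At 24 h (n = 7, on 3 plates) it raised 5 of the 10 genes, against 1.44% of all genes called higher. Tnip3 had 40.3, 59.2 and 118 CPM and a fold change of 3.39 (SE 0.42, adjusted p = 1.26e-12), and Nfkbie 43.1, 47.3 and 92.7 CPM and 2.73 (SE 0.44, adjusted p = 1.97e-07). Every TNFa culture exceeded every untreated culture for both. Nfkbia (396, 693 and 832 CPM), Relb (18.8, 35.5 and 57.6 CPM) and Nfkb2 (168, 221 and 304 CPM) changed by 2.41 (SE 0.21, adjusted p = 3.35e-25), 1.94 (SE 0.37, adjusted p = 2.32e-05) and 1.87 (SE 0.35, adjusted p = 1.98e-05). All 5 genes were higher within 3 of 3 plates.

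Nfkbiz and Irak3, the genes with the largest changes after LPS_hi and P3C at 24 h, were not called with TNFa. Nfkbiz had 0.571, 15.02 and 22.8 CPM, overlapping with the untreated cultures, and a fold change of 0.49 (SE 0.40, adjusted p = 0.716). Irak3 had 8.29, 27.4 and 30.8 CPM and 1.01 (SE 0.36, adjusted p = 0.0917); with plate or pool as a term it was called, at 1.09 in both. Tnfaip3 divided by plate, with 151, 174, 162 and 201 CPM on 2 plates and 23.6, 41.1 and 41.2 CPM on the third, and did not pass at 1.20 (SE 0.46, adjusted p = 0.137). With plate or pool as a term it was called, at 1.30 and 1.59. Nfkb1 and Rel stood at 0.36 and -0.59, neither called.

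A direct comparison of P3C with TNFa at 24 h was added after these values were seen. Of the 10 genes, Nfkbiz and Irak3 were called higher with P3C, where 1.37% of all genes were, at 3.16 (SE 0.54, adjusted p = 2.01e-06) and 3.10 (SE 0.49, adjusted p = 9.97e-08). The lowest P3C culture held 44.2 CPM of Nfkbiz and 106 CPM of Irak3, above the highest TNFa culture at 22.8 and 30.8 CPM. Within the 1 plate that held both stimuli the differences were 4.22 and 3.05. Nfkbie pointed the other way at -1.64 (SE 0.59, adjusted p = 0.0632), and with plate or pool as a term it was called lower with P3C, at -2.11 and -2.19.

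**Figure D2:**
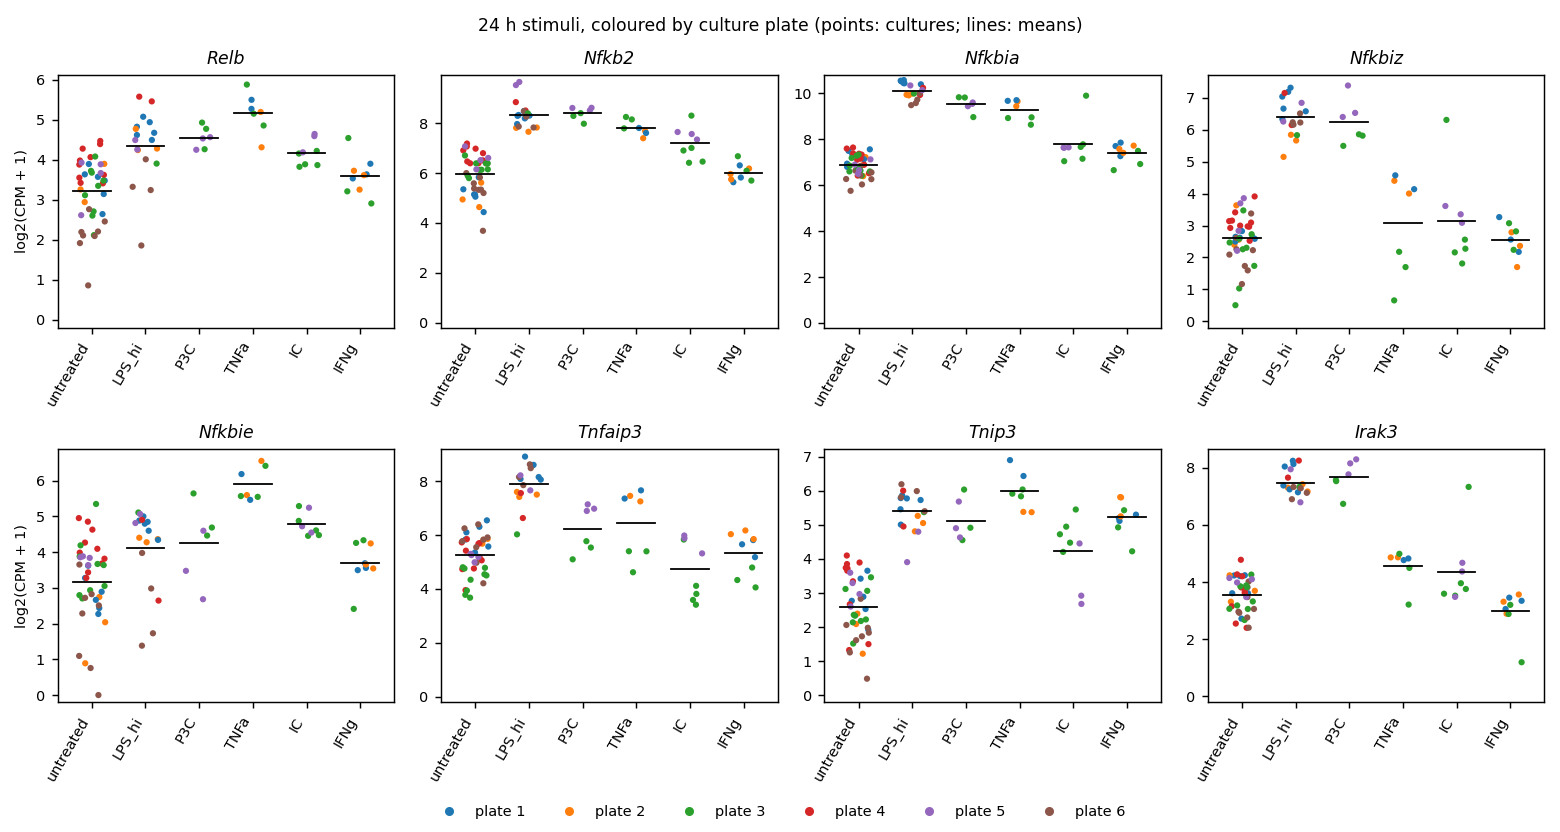
Levels of 8 of the genes, as log2(CPM + 1), in untreated cultures and in cultures with LPS_hi, P3C, TNFa, IC or IFNg at 24 h; each point is 1 culture, the colours mark 6 culture plates and the lines are means. Nfkbiz and Irak3 are high with LPS_hi and P3C and overlap with untreated cultures with TNFa, while Nfkbie is highest with TNFa, at 43.1 to 92.7 CPM.

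IC raised 3 of the 10 genes at 24 h (n = 8), against 2.89% of all genes: Tnip3 by 1.65 (SE 0.39, adjusted p = 0.000647), Nfkbie by 1.60 (SE 0.41, adjusted p = 0.00196) and Nfkb2 by 1.26 (SE 0.33, adjusted p = 0.00262). Each overlapped with the untreated cultures. Within the 2 plates that held IC and untreated cultures, Tnip3 differed by 0.24 and 2.27, Nfkbie by 1.03 and 1.16, and Nfkb2 by 0.80 and 0.93. Nfkb2 had 84.2, 145 and 315 CPM, and its call was lost with plate or pool as a term, at 0.89 and 0.85. Replicate 5 stood apart, with 953 CPM of Nfkbia, 78.4 of Nfkbiz and 160 of Irak3, where the medians of the group were 199, 6.19 and 13.6 CPM. Across the 16935 genes tested, which are not independent replicates, its difference from the untreated mean had a correlation of 0.742 with that of the P3C cultures and of 0.403 with that of the other IC cultures; for the other 7 IC cultures these were 0.285 to 0.439 and 0.521 to 0.742. Without it 3 genes were still called.

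The interferons act through receptors that signal without NF-kB as the main route, and 1 gene answered to IFNg. Tnip3 was the 1 of 10 called at 24 h (n = 9), against 4.41% of all genes called higher. Its levels were 17.7, 36.99 and 55.1 CPM, all above the 40 untreated cultures, and the fold change was 2.64 (SE 0.37, adjusted p = 2.98e-10), in the same direction within 3 of 3 plates. Nfkb1 and Nfkbia had adjusted p-values of 0.0451 and 0.042 with fold changes of 0.76 and 0.53, under the minimum. With IFNb (n = 10) Tnfaip3 was called lower, the 1 gene of 10 where 3.82% of all genes were called lower. It had 1.46, 15.8 and 38.8 CPM and changed by -1.54 (SE 0.39, adjusted p = 0.00188), and among cultures of at least 2 M reads it was -0.86 and not called. With IFNa (n = 8) no member was called by limma, where 11.1% of all genes were; 1 of the 10, Nfkbiz at 0.93 (SE 0.38, adjusted p = 0.0802), had an unadjusted p under 0.05. Nfkbiz was called higher after median-of-ratios scaling, at 1.04, and among cultures of at least 2 M reads, at 1.08, and Tnfaip3 was called lower with plate or pool as a term, at -1.101 and -1.004.

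IL4, a cytokine of the alternative activation state, gave 3 calls of 10 at 24 h (n = 11), where 2.75% of all genes were called. Rel had 23.1, 46.7 and 63.6 CPM and rose by 1.17 (SE 0.37, adjusted p = 0.0424), and Tnip3 had 5.41, 12.5 and 20.7 CPM and rose by 1.14 (SE 0.35, adjusted p = 0.0272). Nfkbiz, at 0, 2.36 and 4.11 CPM, fell by 1.10 (SE 0.33, adjusted p = 0.0258). The 3 genes overlapped with untreated cultures. Rel was called higher with no other single stimulus at 24 h or 72 h. Its mean level with IL13 at 24 h was similar without a call, at 47.8 CPM (SD 16.6, n = 9) against 46.2 CPM (SD 13.5, n = 11) with IL4.

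Over the panel of single stimuli, 38 at 24 h and 25 at 72 h, 81 of 630 pairs of a gene and a stimulus were called (12.9%), against 4.13% of pairs over all genes. Of these 61 were higher and 20 lower, and 27 stimuli at 24 h and 11 at 72 h had no called member. Tnip3 was called most often, higher in 13 and lower in 2 of 63, followed by Nfkb2 with 11 and 3. Nfkbiz had 8 higher and 1 lower, Relb and Nfkbia 7 and 1 each, and Nfkbie 4 and 3. Nfkb1 and Tnfaip3 had 2 higher and 3 lower each, and Rel 1 and 3. Irak3 was called in 6, all higher, and these were LPS_hi, LPS_lo and P3C at both times.

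Falls were called with several stimuli, each for a few of the 10 genes. With the stimulus labelled MPP, Nfkbie (-1.55), Tnip3 (-1.26) and Nfkb2 (-1.14) fell at 24 h, where 1.78% of all genes were called lower. At 72 h with MPP these were Rel (-2.04), Nfkbia (-1.36) and Nfkb1 (-1.01), where 4.69% were. TGFb, a cytokine that holds microglia in their resting state, lowered Nfkbie (-1.44) and Nfkb2 (-1.14) at 24 h, where 0.455% of all genes were lower. Valproic acid lowered Tnip3 (-1.71) and Nfkb2 (-1.11) at 24 h, against 3.17%. At 72 h IL13 lowered Tnfaip3 (-1.92) and Relb (-1.30), against 1.36% of all genes. IC lowered Rel (-2.09) and Nfkb1 (-1.39) at that time, against 5.98%, and IFNa lowered Tnfaip3 (-2.32), against 4.64%. Within the 2 plates that held IFNa and untreated cultures, however, Tnfaip3 differed by -3.75 and 0.08.

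The remaining rises were at 72 h. IFNg raised Nfkbiz (1.46) and Tnip3 (1.66), where 4.3% of all genes were called higher, and IFNb raised Nfkbiz (1.78), against 3.58%. Nfkb2 rose with IL10 (1.46), against 1.2%, and with norepinephrine (1.40), against 0.927%. PA raised Nfkb2 (1.22) and Tnip3 (1.40), against 1.55%. IL4 at 72 h (n = 3, on 1 plate) raised Tnip3 by 2.92, where 2.49% of all genes were called higher. The 3 IL4 cultures held 7.06, 8.36 and 52.8 CPM of Tnip3. Where 1 gene of 10 was called, the count is too small to be read against these shares.

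TNFa alone at 72 h rested on 3 cultures of 1 plate that disagreed. They held 5.57, 156 and 2.12 CPM of Nfkb2, 372, 45.4 and 76.3 CPM of Nfkbia, and were listed at 0 for Nfkbie in all 3. In that condition 4 of 10 genes were called, where 27.7% of all genes were: Rel (-2.94), Nfkb1 (-2.63) and Nfkbie lower, and Relb (1.69) higher. Leaving the condition out left 77 pairs called over the panel.

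**Figure D3:**
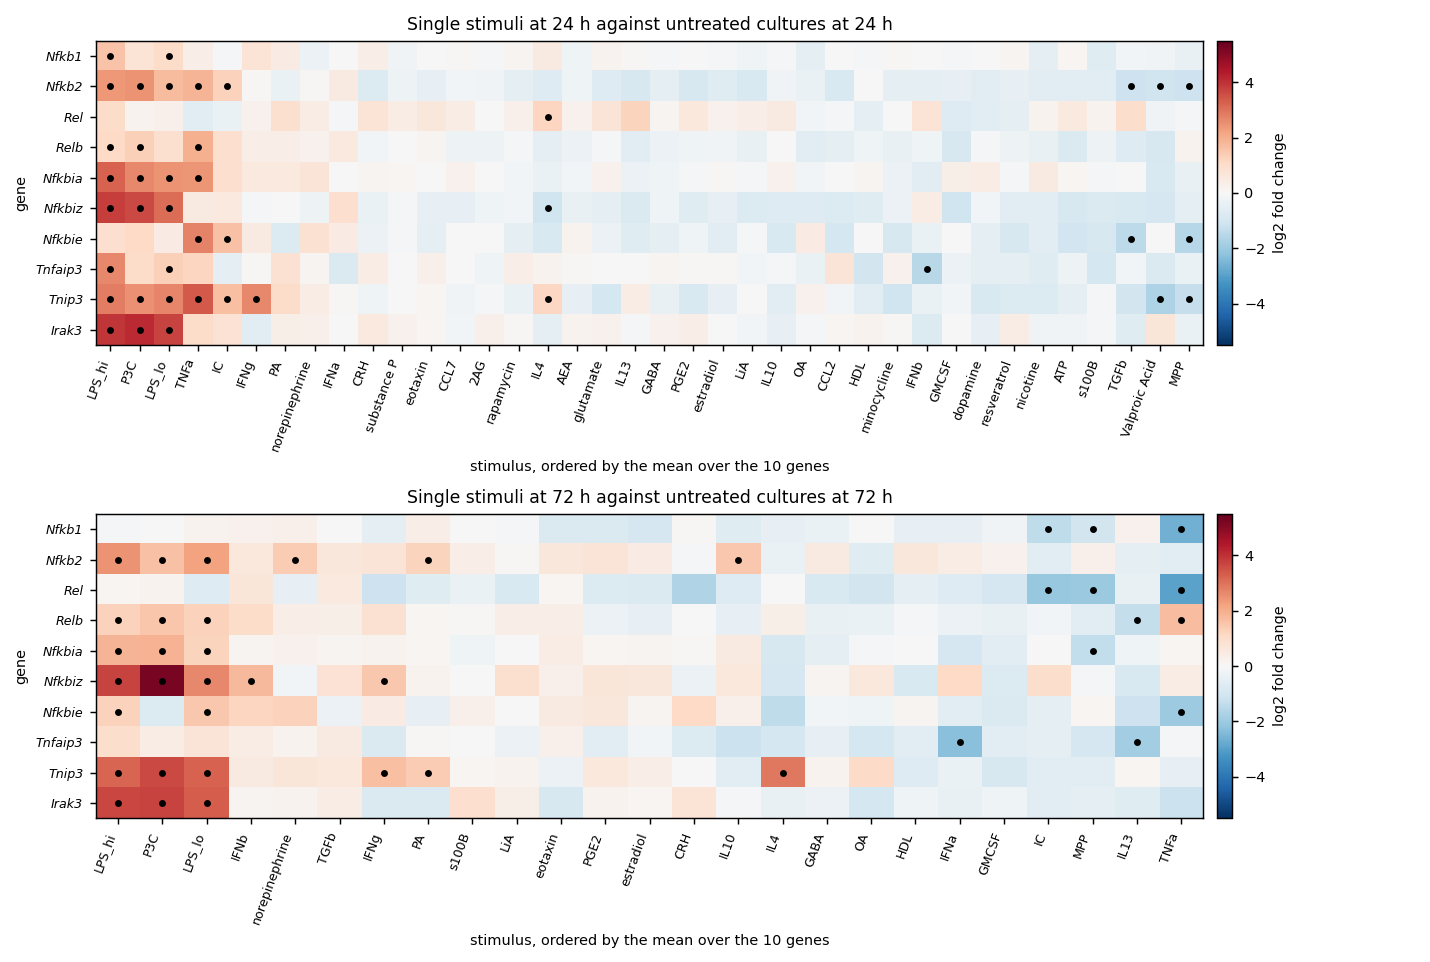
Log2 fold changes of the 10 genes against untreated cultures of the same time for 38 single stimuli at 24 h and 25 at 72 h, on the log2(CPM + 1) scale, with 1 colour scale for both times; dots mark called pairs and stimuli are ordered by their mean over the 10 genes. LPS_hi, LPS_lo and P3C are in the block of high values, as is TNFa at 24 h. The median over the 10 genes was 1.53 with TNFa at 24 h and 1.54 with LPS_lo at 24 h. At 24 h 27 of 38 stimuli carry no dot.

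Modulators were added to LPS in 19 combinations, each compared with LPS alone at the same dose and time. Of 190 pairs of a gene and a combination 13 were called (6.84%), against 1.16% of pairs over all genes, and all 13 were lower. In 14 combinations no member was called. The called pairs were all with LPS_lo at 72 h, with IL10, IL4, IL4 + IL10 + IL13, norepinephrine or TGFb. LPS_lo with each cytokine had 5 cultures, against 11 with LPS_lo alone, and 1 plate held cultures of both.

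IL10 is an anti-inflammatory cytokine that restrains macrophages. With it 4 of 10 genes were lower than with LPS_lo alone, against 1.91% of all genes. Tnip3 had 5.71, 18.02 and 31.8 CPM with LPS_lo and 2.201, 2.23, 6.57, 0 and 0.275 CPM with IL10 added, a difference of -2.98 (SE 0.55, adjusted p = 5.31e-05). Nfkbiz had 8.87, 18.4 and 32.9 CPM alone and 3.46, 4.13, 11.1, 0 and 0 CPM with IL10, a difference of -2.58 (SE 0.53, adjusted p = 0.000384). In both genes 1 of the 5 cultures reached into the LPS_lo range. Nfkbie and Nfkb1 differed by -1.88 (SE 0.57, adjusted p = 0.0463) and -1.46 (SE 0.39, adjusted p = 0.0188). Within the shared plate the differences were -2.39 for Tnip3, -1.45 for Nfkbiz, -0.73 for Nfkbie and -0.52 for Nfkb1. Irak3, at 32.5, 55.3, 40.7, 18.6 and 41.2 CPM, lay below all LPS_lo cultures without passing the test, at -1.41 (SE 0.47, adjusted p = 0.0762).

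IL4 lowered Irak3 and Nfkbiz, 2 of 10 genes where 1.07% of all genes were lower. Irak3 had 61.9, 99.2 and 179.7 CPM with LPS_lo alone and 14.95, 13.7, 7.98, 14.5 and 35.3 CPM with IL4 added, without overlap and with a difference of -2.56 (SE 0.47, adjusted p = 2.05e-05). Nfkbiz, at 3.44, 3.88, 9.64, 2.399 and 0 CPM, differed by -2.27 (SE 0.53, adjusted p = 0.0021). Within the shared plate these differences were -2.80 and -1.75. With IL13, whose receptor shares a chain with that of IL4, no member was called; Irak3 was at 46.4, 52.04, 41.04, 37.6 and 83.9 CPM and -0.93 (SE 0.47, adjusted p = 0.826), and Nfkbiz at -0.36 (SE 0.53, adjusted p = 1). The effects of IL4 and IL13 were not tested against each other.

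With all 3 cytokines 5 of 10 genes were lower, against 3.17% of all genes. Irak3 fell to 5.16, 6.37, 6.54, 6.18 and 40.2 CPM, a difference of -3.27 (SE 0.47, adjusted p = 2.17e-09), and Nfkbiz to 2.12, 1.31, 0.182, 0 and 4.63 CPM, a difference of -3.08 (SE 0.53, adjusted p = 1.04e-06). Nfkbia, at 135, 244 and 378 CPM with LPS_lo alone, fell to 45.2, 75.1, 37.5, 38.1 and 39.1 CPM and by 2.38 (SE 0.27, adjusted p = 1.04e-14). No culture overlapped for the 3 genes. Tnip3 and Nfkbie differed by -1.93 (SE 0.55, adjusted p = 0.013) and -1.79 (SE 0.57, adjusted p = 0.0379). Within the shared plate the differences were -3.74 for Irak3, -3.12 for Nfkbiz, -2.11 for Nfkbia and for Tnip3, and -1.59 for Nfkbie. Without LPS, the same 3 cytokines lowered 2 of 10 genes against untreated cultures, Nfkbia (-1.07) and Irak3 (-1.74), where 5.01% of all genes were called lower. The other called pairs were Nfkbia with norepinephrine (n = 3, on 1 plate), at -1.29, and Tnip3 with TGFb (n = 8), at -2.12. Each was 1 of 10 genes, where 0.354% and 1.35% of all genes were lower.

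**Figure D4:**
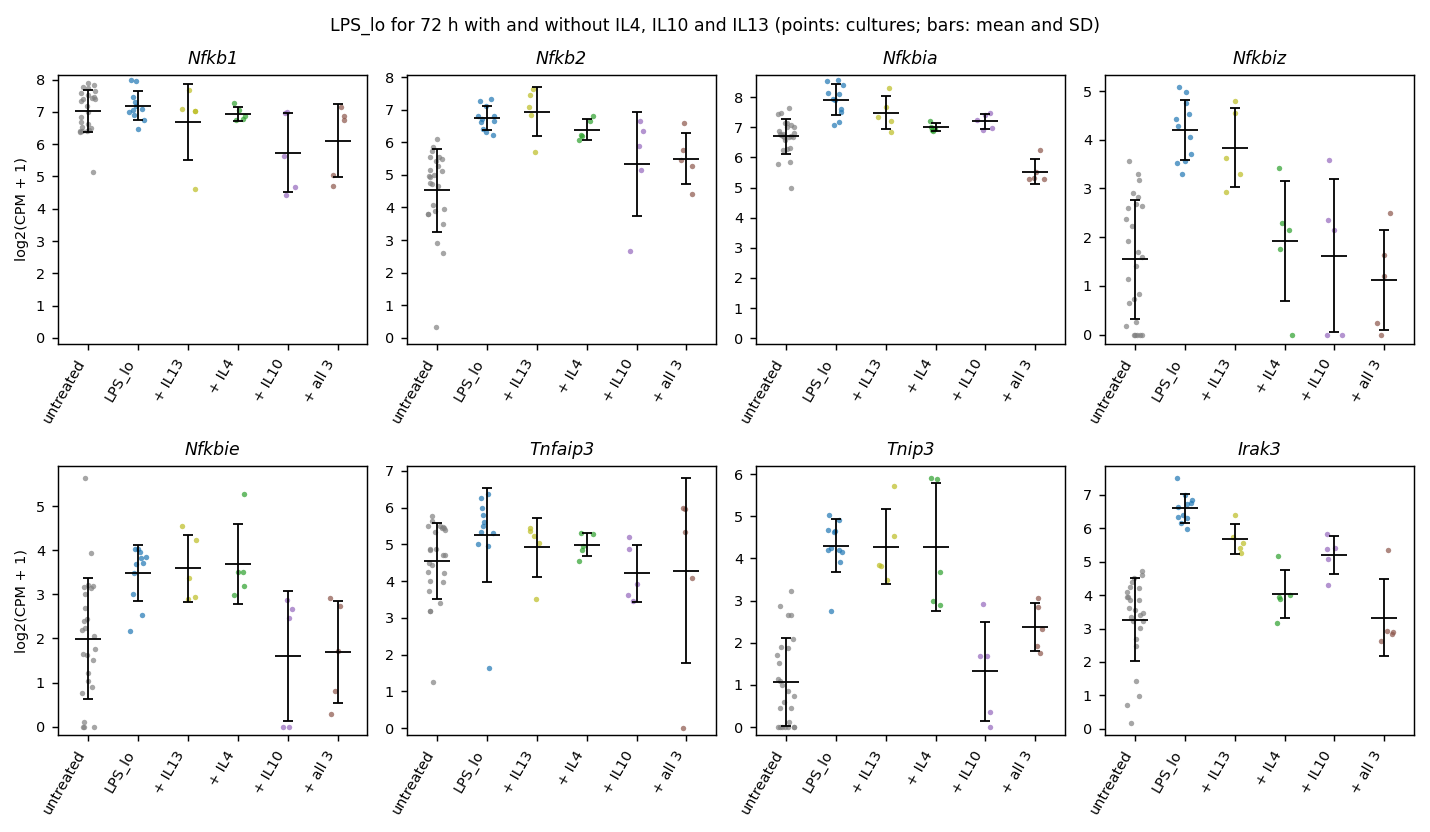
Levels of 8 of the genes, as log2(CPM + 1), at 72 h in untreated cultures, with LPS_lo alone and with IL13, IL4, IL10 or all 3 added to LPS_lo; each point is 1 culture. Irak3 lies below all LPS_lo cultures with IL4, with IL10 and with all 3 cytokines. With IL13 most of the 5 cultures, at 37.6 to 83.9 CPM, also lie below them, and the highest overlaps with LPS_lo alone.

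TNFa with IFNg for 72 h (n = 8) gave 8 of 10 genes higher than in untreated cultures, against 4.68% of all genes. Tnip3 had 23.4, 72.8 and 89.3 CPM and changed by 4.99, Nfkbie 20.01, 42.4 and 52.1 CPM and 3.34, and Tnfaip3 86.9, 143 and 198 CPM and 2.60. Irak3, at 34.2, 46.5 and 74.3 CPM, changed by 2.38, its cultures all above the untreated ones. Against TNFa alone at 72 h, 9 of 10 genes were higher, where 15.2% of all genes were, but this rests on the 3 cultures described. Without replicate 2 of TNFa alone the calls of Nfkbiz and Rel were lost, at 1.34 and 1.31, and without replicate 3 that of Tnfaip3, at 1.98. TNFa added to P3C at 72 h (n = 7) changed no member by limma, where 1.08% of all genes were called; 1 of the 10, Rel at -1.20 (SE 0.61, adjusted p = 0.396), had an unadjusted p under 0.05. PGE2, a prostaglandin, added to P3C (n = 7) raised Nfkbie, 1 of 10 genes where 1.15% of all genes rose, from 0.141, 1.47 and 3.51 CPM to 3.62, 12.6 and 16.6 CPM, a difference of 2.15 (SE 0.59, adjusted p = 0.0116). The groups did not overlap, but in a fit of the cultures of the times compared alone no member was called. TNFa with PGE2 for 72 h (n = 8) gave 8 of 10 genes higher than in untreated cultures, against 3.75% of all genes. This was as many as with TNFa and IFNg.

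Ordered by mean level over the culture conditions, the 4 conditions with LPS_hi for 4 h, alone or with norepinephrine, ATP or nicotine, held the top 4 places for Nfkb1, Nfkb2, Rel, Relb, Nfkbia, Nfkbie, Nfkbiz and Tnfaip3. For Nfkb1 the step from the fourth place to LPS_hi 24 h was 1.31 on the log2 scale, larger than the pooled SD of 0.42, while the top 4 did not differ by more than their SD. The step below the fourth place was within the pooled SD for Nfkbiz, at 0.04 (SD 0.47, to TNFa + P3C 72 h). It was so for Relb as well, at 0.14 (SD 0.36, to TNFa 24 h), and exceeded the SD for the others of these genes. Tnip3 was highest with LPS_hi + norepinephrine at 4 h (164 ± 89.1 CPM, SD, n = 8) and LPS_hi at 4 h (126 ± 59.1 CPM, n = 7), within 1 SD of each other. Irak3 was highest with P3C at 24 h (216 ± 74.8 CPM, SD, n = 6), then LPS_hi + minocycline (196 ± 27.9 CPM, n = 7), LPS_lo + rapamycin (187 ± 39.2 CPM, n = 7) and LPS_hi (187 ± 63.0 CPM, n = 18), all at 24 h, and no neighbours among these differed by more than 1 SD.

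Over 97 conditions, which share plates and library pools, Pearson's r between the mean levels described which genes ran together. Nfkbia and Nfkb2 had the highest median r with the other 9 genes, 0.833 and 0.825, and Rel and Irak3 the lowest, 0.507 and 0.608. Among all genes tested, those nearest to Nfkbia were Ehd1 (0.939), Tnf (0.911) and Traf1 (0.910), and those nearest to Nfkb2 were Traf1 (0.920), Irg1 (0.903) and Ehd1 (0.902). Nfkbiz ran with Tnf (0.926), Rassf4 (0.905) and Ehd1 (0.904), and Relb with Nfkbia (0.846), Tnf (0.845) and Nfkb2 (0.837). Irak3 had Fpr1 (0.931), Rac2 (0.904) and Marco (0.893) as its nearest, none of them among the 3 nearest of another member. Tnfaip3 was nearest to Nlrp3 (0.888), Traf1 (0.857) and Nfkbia (0.855), and Tnip3 to Cdc42ep2 (0.881), Irg1 (0.878) and C3 (0.873). For Nfkb1 these were Tnfaip3 (0.824), Rab11fip1 (0.819) and Apobr (0.816), for Nfkbie Nfkb2 (0.825), Foxp4 (0.824) and Slc2a6 (0.819), and for Rel Csrnp1 (0.765), Rccd1 (0.762) and Malt1 (0.760). Those of Rel, like those of Irak3, were among the 3 nearest of no other member.

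The rest of the pathway moved less evenly. Of 14 tested target genes of NF-kB outside the 10, 14 rose at 4 h and at 24 h with LPS_hi and 12 at 72 h, with median fold changes of 6.38, 4.23 and 3.03 beside -0.39, -0.14 and -0.20 over all genes. Of all genes tested, 5.45% were called higher and 23.8% lower at 4 h, and 5.25% and 10.9% at 24 h. List genes that are low in untreated cultures could enter the test through stimulated cultures, so the counts of the lists are a description. Cxcl2, a neutrophil chemokine, rose by 7.57 at 4 h and Nos2, the inducible nitric oxide synthase, by 7.07 at 24 h. With TNFa 3 of the 14 rose, Sod2 the most at 2.59, and 2 fell, Ccl4 the most at -2.20, where 1.44% of all genes were called higher and 1.53% lower. Of 16 kinases of the pathway 5 rose and 3 fell at 4 h, with a median of -0.25; Ripk2 rose by 3.89 and Irak4 fell by 2.25. Of 16 adaptors and ubiquitin ligases 6 rose and 1 fell, with a median of 0.03, from Traf1 at 7.02 to Sharpin at -1.40. Of 11 other negative regulators tested 4 rose and 3 fell, with a median of 0.03; Zc3h12a, a ribonuclease that destroys cytokine transcripts, rose by 3.23 and Tnfaip8l2 fell by 2.29. Of the remaining subunit gene and 4 other genes of the IkB kind, 3 rose and none fell, Nfkbib the most at 3.23. At 24 h the higher and lower counts were 3 and 0 of 16 kinases (Ikbke the most, 2.41), 5 and 0 of 16 adaptors (Traf1, 5.70), 4 and 0 of 11 regulators (Zc3h12a, 2.85), and 2 and 0 of the 5 (Bcl3, 2.00).

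In mice, LPS for 4 h raised 7 of the 7 genes that were above the filter of 5 CPM in all 4 PBS mice (Nfkb1, Nfkb2, Rel, Relb, Nfkbia, Nfkbie and Tnfaip3), where 8.2% of the 9012 genes tested were higher, at an adjusted p under 0.05 in limma with no minimum fold. Irak3, Nfkbiz and Tnip3 were above 5 CPM in fewer than 4 PBS mice and entered the test only through their LPS values, so they are left out of this count and their values are given as a description. The 4 LPS mice lay above the 4 PBS mice for each of the 10 genes. This too is a description, since the share of all genes so separated was not counted. The median over all genes was -0.19, and -0.04 after median-of-ratios scaling, where the 7 genes were called as well.

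Among the subunits in mice, Nfkb2 had 36.9, 38.4, 46.7 and 32.2 CPM with PBS and 264, 247, 318 and 232 CPM with LPS, a change of 2.76 (SE 0.17, adjusted p = 1.25e-06). Relb had 7.29, 5.196, 5.98 and 6.24 CPM and 35.1, 31.3, 31.5 and 37.01 CPM and changed by 2.28 (SE 0.15, adjusted p = 2.04e-06). These were the larger changes of the 4 subunit genes. Rel had 53.9, 43.1, 46.1 and 55.8 CPM and 156, 99.9, 105 and 127 CPM, a change of 1.26 (SE 0.18, adjusted p = 0.000759). Nfkb1, with 463, 479, 423 and 537 CPM and 931, 830.5, 1090.0 and 838 CPM, changed by 0.95 (SE 0.16, adjusted p = 0.00179), the smallest of the 7.

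Of the IkB genes, Nfkbia had 159, 126, 166 and 194 CPM with PBS and 1416, 1412, 1520.2 and 1388 CPM with LPS, changed by 3.16 (SE 0.16, adjusted p = 3.16e-07). Nfkbie went from 9.81, 15.01, 15.2 and 10.4 CPM to 88.95, 85.1, 72.3 and 58.1 CPM, by 2.51 (SE 0.20, adjusted p = 9.63e-06). Nfkbiz had 2.62, 2.45, 5.88 and 6.52 CPM and 97.1, 86.1, 98.9 and 78.5 CPM, a difference of 4.17. The 4 LPS mice were close to each other in Nfkbia, between 1388 and 1520 CPM.

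Tnip3 was low in PBS mice, with 1.18, 0.866, 1.19 and 0.8698 CPM, and had 39.3, 50.03, 63.2 and 51.5 CPM after LPS. The difference was 4.67. Tnfaip3, whose product Tnip3 binds, was already expressed in PBS mice. It had 103, 105, 137 and 156 CPM and 1296, 1310.4, 1313 and 1265 CPM, changed by 3.38 (SE 0.17, adjusted p = 2.63e-07). Irak3 had 4.91, 3.03, 4.35 and 3.62 CPM and 14.8, 15.1, 15.4 and 16.7 CPM, a difference of 1.74.

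Other cell markers moved with LPS in these mice. The summed neutrophil markers were 99.7 to 188 CPM with PBS and 208 to 388 CPM with LPS, 4 of 7 tested being higher, and the monocyte markers 27.7 to 50.0 CPM and 40.3 to 74.1 CPM, with 2 higher and 1 lower of 4. The genes that rise with tissue dissociation summed to 374 to 418 CPM and 3094 to 3753 CPM, 7 of 8 tested being higher. The microglia markers summed to 43809 to 54861 CPM and 46598 to 52153 CPM, 2 of 8 being lower. The part of the first 3 lists in the result was not tested. Of the pathway genes tested in mice, 14 of 14 targets rose (Cxcl2 the most, 5.19), 7 of 16 adaptors (Birc3, 2.77), 5 of 11 other regulators (Zc3h12a, 2.78) and 4 of 4 further IkB or subunit genes (Bcl3, 4.01). Of 12 kinases 1 rose, Map3k8 by 3.95, and 1 fell, Ikbkg by 0.54, and 1 regulator fell, Itch by 0.76. Of all genes tested 8.2% were higher and 11.6% lower, and list members that are low in PBS mice could enter the test through their LPS values, so the counts of the lists are a description.

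**Figure D5:**
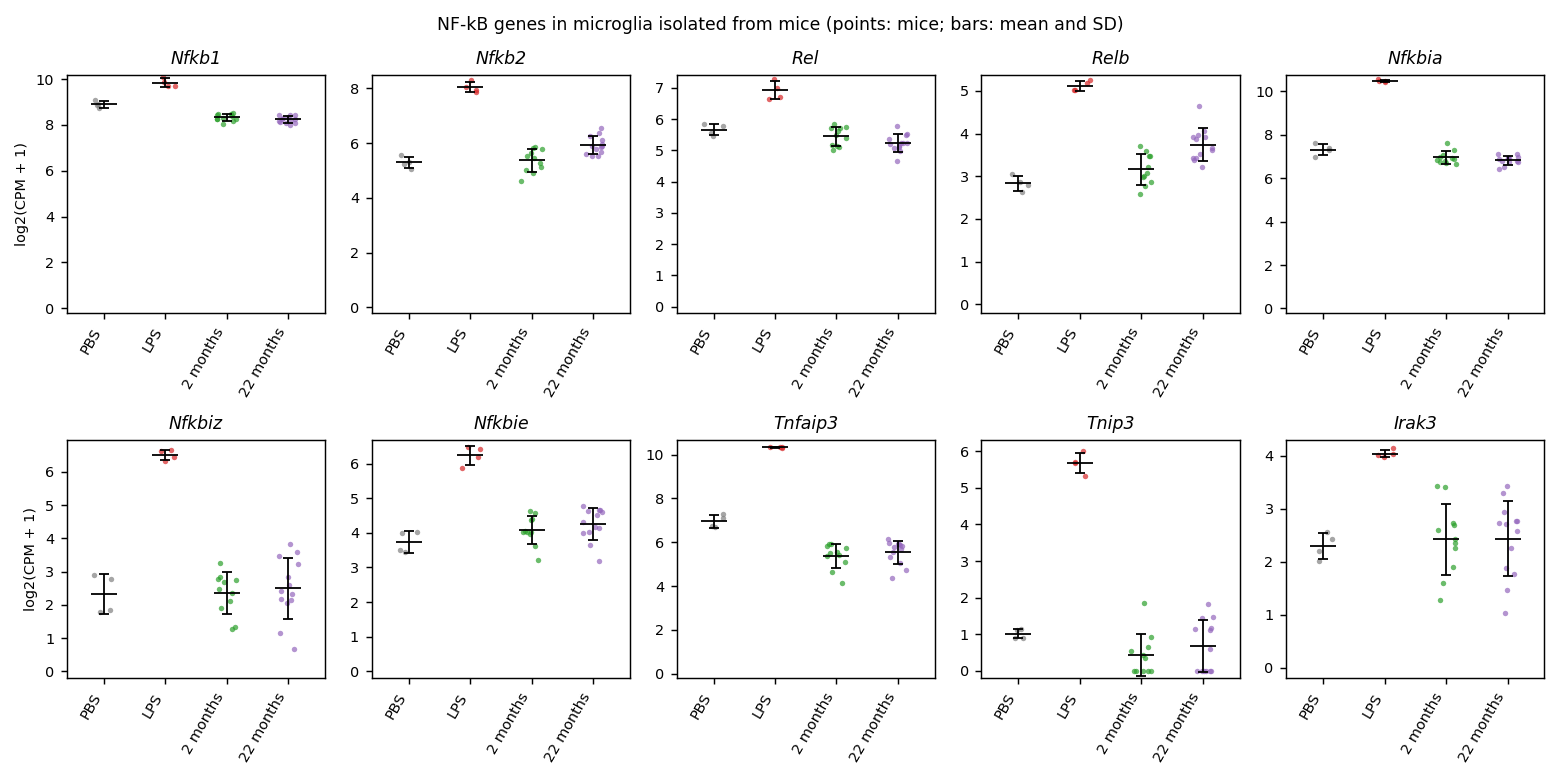
Levels of the 10 genes, as log2(CPM + 1), in microglia of PBS and LPS mice and of mice of 2 and 22 months; each point is 1 mouse. The 4 LPS mice stand above the 4 PBS mice for every gene shown, and the age groups overlap for every gene shown. The share of all genes so separated was not counted.

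With age the changes were small. Of the 9 genes that passed the filter of 5 CPM in at least 11 mice, 2 were higher at 22 months, where 2.45% of the 9632 genes tested were. Nfkb2 had 23.7, 42.5 and 57.4 CPM at 2 months and 44.9, 58.1 and 93.4 CPM at 22 months, a difference of 0.56 (SE 0.15, adjusted p = 0.04). Relb had 4.99, 7.39 and 12.1 CPM and 8.22, 11.7 and 24.1 CPM, a difference of 0.58 (SE 0.15, adjusted p = 0.0346). Both groups overlapped. The libraries came in 2 sets of titles, and within them the differences were 0.70 and 0.45 for Nfkb2 and 0.67 and 0.53 for Relb, in neither set called. The other 7 genes differed by -0.22 (Rel) to 0.17 (Tnfaip3), none called. Tnip3 did not pass the filter and was listed at 0 in 5 of 11 and 6 of 13 mice.

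Markers of other cells also differed with age. The summed neutrophil markers were 199.7 to 1423 CPM at 2 months and 401 to 4804 CPM at 22 months, 3 of 8 being higher, and the monocyte markers 51.0 to 178 CPM and 94.5 to 605 CPM, 2 of 5 being higher. The 6 markers of T and B cells summed to 4.45 to 17.7 CPM and 9.60 to 55.4 CPM, and the 1 tested was higher, as was 1 of 2 tested endothelial markers. The part of these cells in the differences of Nfkb2, Relb and the targets was not tested. No gene of the other subunit, regulator, kinase or adaptor lists was called with age, and 4 of 7 tested targets were higher, Ccl5, a chemokine that T cells make as well, the most at 1.74.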

How the data were processed

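CPM values, a gene's reads as a share of all mapped reads on a fixed scale, were used as deposited: per the labels and the study's methods, the authors quantified 3′-end libraries with Salmon 0.7.1 (their build is given as mm8, their transcripts as Ensembl 81), summed reads per gene and divided by mapped reads. The methods call the values TPM; the low values step like reads per mapped total, but in the least regular culture 70.1% of them were whole within 0.1, so no counts were rebuilt. Samples were grouped by treatment, dose, duration and age in the labels; 1 culture labelled LPS_hi at the lower dose entered no test. The 10 genes and all gene lists were chosen with earlier results of these data known.

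Genes above 5 CPM in at least 4 samples (11 in the aging mice) were tested with limma 3.58.1 (R 4.3.3) on log2(CPM + 1), with Benjamini-Hochberg adjustment over all genes tested: 16935 in 1 fit of 783 cultures in 97 groups, 9012 in LPS mice and 9632 in aging mice. Besides the 10 genes, the text names, per list, the called genes with the largest rise and fall, and the 3 genes nearest in r to each member. Alternatives were other pseudocounts, filters, scaling, moderation, fold minimum, a rank-sum test, plate or pool terms, depth and left-out samples. The tests were checked on simulated data. The labels do not say that replicates are separate animals or cell preparations, so p-values for cultures measure the spread between these wells, which may be technical. Depth sets the precision of low values: 1 read is worth up to 1 CPM in the shallowest culture.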

Additional observations from a re-analysis of the deposited data

Results flagged for a closer look

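Among 140 groups of values of 4 to 10 samples tested for a value apart from the rest (Dixon's test at the 95% level), 16 had one; chance gives about 1 in 20. In IC cultures at 24 h, replicate 5 held 953 CPM of Nfkbia, 78.4 CPM of Nfkbiz and 160 CPM of Irak3, each the highest of 8, and replicate 7 the lowest Rel, 1.97 CPM. With LPS_hi at 4 h, replicate 5 had the highest Rel of 7, 242 CPM. With P3C at 24 h, replicate 5 had the lowest Rel, 1.22 CPM, and at 72 h replicate 6 had the lowest Tnfaip3, 1.71 CPM, and the lowest Irak3, 58.6 CPM. The lowest Irak3 with TNFa at 24 h was 8.29 CPM in replicate 7. With IFNg at 24 h, replicate 9 was lowest for Nfkbie, 4.32 CPM, and Irak3, 1.29 CPM, and with IFNb replicate 6 was listed at 0 for Nfkbiz. With TNFa + IFNg at 72 h, replicate 8 had the lowest Nfkbia, 273 CPM, and replicate 5 the lowest Nfkbie, 20.0 CPM, and Tnip3, 23.4 CPM. With TNFa + P3C at 72 h, replicate 4 had the lowest Irak3, 99.97 CPM.

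The LPS_hi effect differed between 72 h and 24 h in the test of the difference itself for Nfkb1, by -1.66, Nfkbia, by -1.38, and Tnfaip3, by -1.69, all on the log2(CPM + 1) scale. The 2 times stand on different plates.

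The 1 culture labelled LPS_hi at 72 h with the lower dose, used in no comparison, held 14.4 CPM of Nfkbiz, 14.4 CPM of Tnip3 and 116 CPM of Irak3, in each case above all 25 untreated 72 h cultures.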

How the results depend on the processing

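No paired analysis was possible because the labels give no replicate numbers that groups share. Over all alternatives the fold changes of the 10 genes stayed on their side of the threshold in 2291 cases, moved past it in 54 and fell short of it in 46. Reversals were counted only where a gene was called in the main fit or in the alternative, and there were 0. The sign of genes called in neither was not compared. Counts of called genes that moved by more than 1.5 times were few. By adjusted p alone IFNg at 24 h had 3 and IFNb 2 called genes, each 1 with the minimum fold. With median-of-ratios scaling IC had 5 (3 with the authors' scaling) and IFNa 1 (from 0), and IFNa also had 1 with plate or pool as a term and among cultures of at least 2 M reads, where IFNb had 0. LPS_hi against P3C had 0 (from 1) with a pseudocount of 0.1 and with plate or pool as a term. P3C against TNFa had 4 (from 2) with plate or pool as a term, Rel and Nfkbie being added. The 72 h against 24 h difference had 1 (from 3) with pool as a term and without 3 cultures of 1 pool. P3C + PGE2 against P3C had 3 with a pseudocount of 5, 2 at 2 M reads and 0 in a fit of the times compared (from 1). Aging had 0 with a fold minimum, 0 within either library set and 1 without a filter (from 2). Over the panel, counts ranged from 63 to 92 between alternatives and from 80 to 82 when 1 culture was left out, and it was 77 without TNFa at 72 h. Of all called genes, those higher with LPS_hi at 4 h were 18.6% with the authors' scaling and 29.9% with median-of-ratios scaling, in LPS mice 41.5% and 63.6%, with IC 32.1% and 48.7%, with TNFa at 24 h 48.5% and 58.6%, and in the 72 h against 24 h difference 37.5% and 23%. Depth limits the low genes: 107 cultures held under 2 M reads, and without them TNFa at 72 h could not be fitted.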
